A study of Aspergillus nidulans with 24 samples.

Results

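The direct contrast of strain 1542 with strain AbfA of the filamentous fungus Aspergillus nidulans was examined after 2 h of induction. It rested on 6 of the 24 libraries of the series, 3 of 1542 and 3 of AbfA, and on all 9201 of 10631 genes that reached at least 1 FPKM (fragments scaled for the length of the gene and the total of the library) in at least 3 of the 24 libraries. No gene was chosen for how it differed between these strains, but the pair itself was chosen because these strains look most alike at 2 h. Strain 1542 produces a thermophilic mannanase of family GH5 from another organism, and strain AbfA a heterologous alpha-arabinofuranosidase. The labels name A773, with the alleles pyrG89, wA3 and pyroA4, as the parental strain, and give no further genotype, no name for the promoter and no number of transformants, so each recombinant strain is treated as 1 line. Mycelium was grown at 37 °C on 1% glucose and then held for 2 h in minimal medium with 2% maltose and 250 mM HEPES, the medium that activates the promoter, with pyridoxine, uracil and uridine supplied as needed. The other 18 libraries were those of A773 and of strain BglC, which makes a beta-glucosidase, at 2 h and 8 h, and of 1542 and AbfA at 8 h. They entered the estimate of the spread of each gene and are named only where a value of the 2 strains is set beside them.

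Aspergillus nidulans takes up maltose and cuts it to glucose, and the same sugar switches on the genes of starch breakdown through the activator AmyR. A secreted enzyme is folded in the endoplasmic reticulum, so strains that make 1 such enzyme are often compared for chaperones and folding enzymes. Ethanol, nitrate, purines and metals each have dedicated gene groups that the fungus turns on when its preferred supplies run low, and genes of polyketide synthesis often lie side by side in clusters.

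The 3 libraries of 1542 held 15979313, 12259109 and 12154722 reads in genes, and the 3 of AbfA held 32309717, 14054015 and 17251212. AbfA replicate 1, the deepest library of the series, stood apart. It lay at least 2-fold above both other AbfA libraries in 175 genes and at least 2-fold below both in 364 genes, where the other 5 libraries lay above their group in 8 to 26 genes and below it in 1 to 38. The standard deviation of its log2 values around the group mean was 0.398, against 0.199 and 0.284 in AbfA replicates 2 and 3, and it was 0.183 to 0.227 in the 1542 libraries. Where a list member described below gained or lost its call without AbfA replicate 1, both values are given. Markers of conidiophores and spores were above 1 FPKM in all 6 libraries. Of 9 markers 0 were called, where 2.95% of all genes were called. Their summed level was 811 to 1716 FPKM in 1542 and 1316 to 1642 FPKM in AbfA. Without the abundant hydrophobin rodA, the sum was 363 to 603 FPKM in 1542 and 751 to 809 FPKM in AbfA, so the groups did not overlap. The marker ivoB was the largest part of that sum, at 206 to 372 FPKM in 1542 and 432 to 555 FPKM in AbfA. Taken singly, ivoB, wetA and wA did not overlap between the strains, where 20.6% of all genes did not. The markers rodA, brlA, abaA, ivoA, yA and dewA overlapped. In such bulk samples, fewer cells of a type and less RNA per cell cannot be told apart, and the part of these cells in the results below was not tested.

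**Figure D1:**
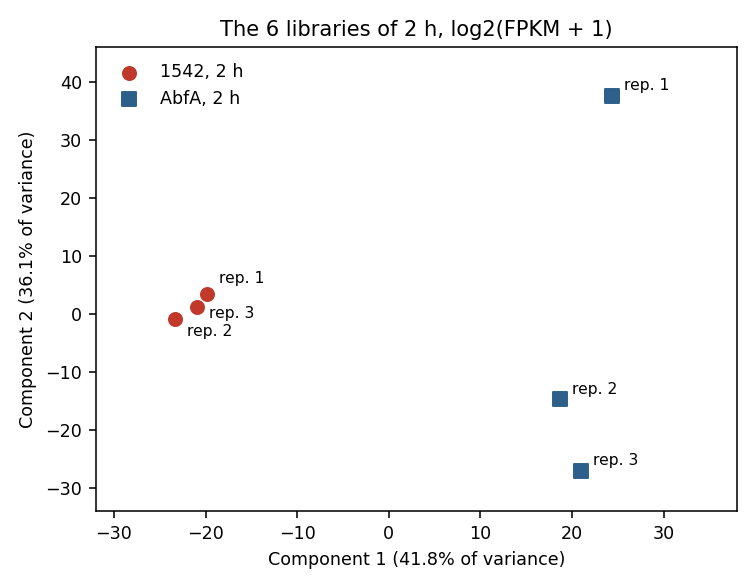
Principal components of the 6 libraries over the 9201 genes on the log2(FPKM + 1) scale, with red circles for 1542 and blue squares for AbfA and each replicate labelled. Component 1, with 41.8% of the variance, parted the strains, and component 2, with 36.1%, parted AbfA replicate 1 at 37.7 from AbfA replicates 2 and 3 at -14.7 and -27.

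At 2 h a small share of the genes was called between the strains in the main fit. Of 9201 genes tested, 158 were higher and 113 were lower in 1542 than in AbfA, which together is 271 genes or 2.95% (1.72% higher, 1.23% lower; limma over all 24 libraries, two-sided, Benjamini-Hochberg adjusted p under 0.05). A difference of at least 2-fold was held by 65 of the higher and 62 of the lower genes, or 1.38% of those tested. Genes near silence in all 3 libraries of a strain (under 1 FPKM) and at 5 FPKM or more in all 3 of the other were 0 in each direction, the introduced genes aside. Set against BglC, the same test called 4192 genes (45.6%) in 1542 and 4040 (43.9%) in AbfA, and set against A773 it called 3517 (38.2%) in 1542 and 2939 (31.9%) in AbfA. Between BglC and A773 it called 2135 (23.2%). The pair of 1542 and AbfA shares libraries with 4 of these comparisons and was chosen for its likeness, so nothing is read from its lower count. The 3 libraries of 1542 lay wholly above or wholly below the 3 of AbfA in 1892 genes (20.6%), and 265 of the 271 called genes were among them. The count depended on the libraries in the fit: 26 genes (0.283%) were called from the 6 libraries alone, and 507 (5.51%) without AbfA replicate 1, 216 of them higher (2.35%) and 291 lower (3.16%). With a weight for each library (array weights) 1921 genes were called. Called with the 24 and with the 6 libraries and without overlap were 22 genes, of which 12 higher and 8 lower ones were native to the fungus and 2 were the introduced genes.

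Each strain carried the message of its own enzyme. The mannanase gene of 1542 stood at 1007, 695 and 1037 FPKM in the 1542 libraries and drew 5, 1 and 15 reads in the AbfA libraries. The arabinofuranosidase gene drew 4, 5 and 8 reads in the 1542 libraries and stood at 6255, 3638 and 2689 FPKM in the AbfA libraries. Every library thus matched its label, and the message of the AbfA enzyme was at the higher level per length in its strain, with the AbfA library of the highest level being replicate 1. The gene of the third strain, BglC, drew 77, 56 and 9 reads in 1542 and 18, 17 and 46 in AbfA.

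pyrG (AN6157) encodes orotidine monophosphate decarboxylase, an enzyme of uridine synthesis, and A773 carries the mutant allele pyrG89. The gene was lower in 1542. It stood at 186, 158 and 183 FPKM in 1542 and at 1169, 488 and 455 FPKM in AbfA. The groups did not overlap, and AbfA replicate 1 was far above the others. The log2 difference was -1.86 ± 0.23 (standard error of the limma fit, as for every ± on this scale below; adjusted p = 0.00037), and it was -1.42 without AbfA replicate 1 (adjusted p = 1e-05) but past the threshold no longer with the 6 libraries alone (adjusted p = 0.084). Mean pyrG levels were 204 ± 19.3 FPKM in BglC and 64.1 ± 2.59 FPKM in A773 (SD, n = 3 each), so that AbfA held the highest mean of the 4 strains. The other 4 genes of pyrimidine synthesis in the list had log2 differences of -0.30 to 0.05. Of these 0 were called, where 2.95% of all genes were. The labels do not say which marker was used to select the recombinant strains.

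The largest differences among native genes were in genes without a symbol in the names table, all of them higher in 1542. AN8308 stood at 1501, 1309 and 512 FPKM in 1542 and at 32.3, 50.7 and 29.4 FPKM in AbfA, a log2 difference of 4.75 ± 0.76 (adjusted p = 0.0027). AN0528 stood at 73.0, 65.5 and 22.9 FPKM in 1542 and at 1.54, 2.10 and 1.58 FPKM in AbfA (4.17 ± 0.75, adjusted p = 0.0051). In both genes 1542 replicate 3 was the lowest of its strain and still lay far above every AbfA library. AN11702 stood at 611, 657 and 340 FPKM in 1542 and at 30.4, 36.2 and 30.1 FPKM in AbfA (3.96 ± 0.67, adjusted p = 0.0036). AN8366 stood at 236, 231 and 103 FPKM in 1542 and at 8.85, 15.2 and 11.8 FPKM in AbfA (3.82 ± 0.80, adjusted p = 0.014). In all 4 genes replicate 3 was the lowest 1542 library, and the strains did not overlap. Their mean levels in the other strains were lower still than in AbfA: AN8308 averaged 26.4 ± 20.6 FPKM in BglC and 5.33 ± 1.66 FPKM in A773, and AN11702 averaged 17.1 ± 9.82 FPKM in BglC and 5.45 ± 0.84 FPKM in A773 (SD, n = 3 each). Of the 4, AN8366 lost its call without 1542 replicate 2 (adjusted p = 0.055).

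The largest negative differences among native genes that passed both fits were smaller. AN8046 stood at 13.1, 10.1 and 8.37 FPKM in 1542 and at 45.6, 48.6 and 79.6 FPKM in AbfA (-2.33 ± 0.42, adjusted p = 0.0055). AN0656 stood at 4.87, 7.48 and 7.36 FPKM in 1542 and at 25.3, 23.1 and 22.2 FPKM in AbfA (-1.72 ± 0.23, adjusted p = 0.00059). In these 2 genes AbfA was the strain apart, since the means of BglC and A773 were 15.8 and 15.2 FPKM for AN8046 and 5.33 and 2.95 FPKM for AN0656. The reverse held for the neighbours AN10748 and AN5874, a pair that was singled out after its values were seen. AN10748 stood at 31.6, 27.6 and 25.5 FPKM in 1542 and at 132, 113 and 145 FPKM in AbfA (-2.16 ± 0.30, adjusted p = 0.00069). AN5874 stood at 9.33, 9.10 and 6.60 FPKM in 1542 and at 40.7, 36.0 and 46.6 FPKM in AbfA (-2.18 ± 0.33, adjusted p = 0.0013). For this pair 1542 was the strain apart, with means of 155 ± 61.0 FPKM in BglC and 137 ± 44.5 FPKM in A773 for AN10748 and 50.2 ± 22.1 and 43.6 ± 16 FPKM for AN5874 (SD, n = 3 each). Of these 4 genes AN8046 had the smallest difference at 8 h (-0.82, adjusted p = 0.29).

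**Figure D2:**
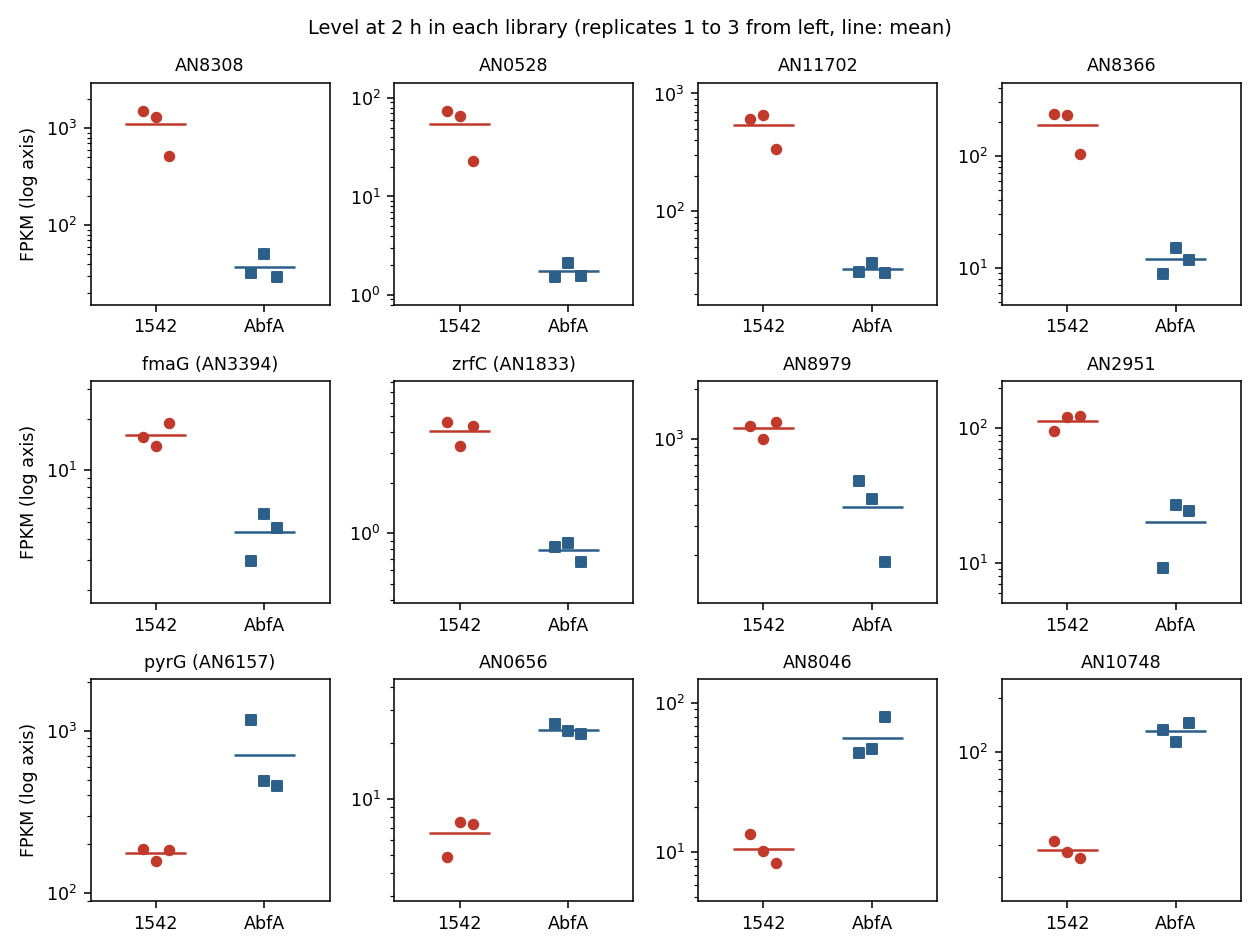
FPKM on a log axis in each library at 2 h for 12 native genes, with red circles for 1542 at the left and blue squares for AbfA at the right, replicates 1 to 3 from left to right within a strain and the mean as a line. The groups do not overlap in any of the 12 panels, and in pyrG AbfA replicate 1 at 1169 FPKM sits above replicates 2 and 3 at 488 and 455 FPKM.

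Genes of the dba cluster (AN7893 to AN7903), which makes a polyketide in A. nidulans, were high in all 3 libraries of 1542 and low in 2 of the 3 libraries of AbfA. Of its 11 genes 3 were called higher and 0 lower, where 1.72% of all genes were called higher, with a median log2 difference of 2.33, against a median of 0.0013 over all genes tested. AN7895 stood at 148, 105 and 74.2 FPKM in 1542 and at 22.7, 8.29 and 6.81 FPKM in AbfA (3.15 ± 0.61, adjusted p = 0.0082). AN7898 stood at 35.7, 34.8 and 14.2 FPKM in 1542 and at 4.85, 2.02 and 1.01 FPKM in AbfA (3.04 ± 0.62, adjusted p = 0.011). The third call, AN7901, had 8.63, 7.23 and 5.17 FPKM in 1542 and 4.41, 0.809 and 0.527 FPKM in AbfA (1.68 ± 0.45, adjusted p = 0.049). AbfA replicate 1 was the highest AbfA library in each of these, and in AN7896 and AN7900 it lay above all 1542 libraries. AN7896 had 67.0, 59.2 and 46.7 FPKM in 1542 and 98.9, 5.37 and 5.28 FPKM in AbfA (1.87, adjusted p = 0.17; 3.20 without that library, adjusted p = 0.0017). Without AbfA replicate 1 all 11 genes were called higher (2.35% of all genes were), and with the 6 libraries alone 0 were. Leaving out 1542 replicate 2 or AbfA replicate 3 left 1 call each. At 8 h all 11 were called higher in 1542 (2.04% of all genes were), with a median log2 difference of 3.39. AbfA replicate 1 of 2 h has no part in the means of 8 h but enters the shared estimate of the spread.

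**Figure D3:**
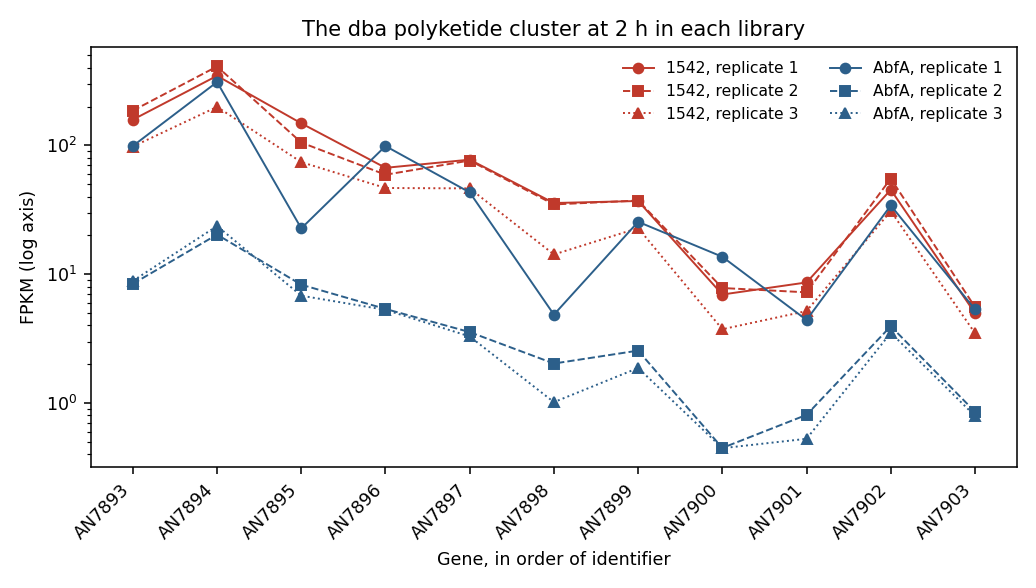
FPKM on a log axis of the 11 dba cluster genes at 2 h, in order of their identifiers, with red lines for the 3 libraries of 1542 and blue lines for the 3 of AbfA. The lines of AbfA replicates 2 and 3 run below all 1542 libraries for every gene, whereas AbfA replicate 1 lies between them and the 1542 libraries, among the 1542 libraries or, in AN7896 and AN7900, above them.

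Other clusters for secondary metabolites had 0 genes called by limma or by voom on recovered reads, and 0 to 2 genes each had an unadjusted p under 0.05. Of all 9201 genes tested, 2.95% were called by limma and 1599 had an unadjusted p under 0.05. All 6 measured genes of the monodictyphenone cluster had negative differences (median -0.77), as did 5 of 5 of the orsellinic acid cluster (median -0.73) and 16 of 16 of the austinol clusters (median -0.47). AN0146 of the monodictyphenone cluster had 0.360, 0.469 and 0.567 FPKM in 1542 and 1.10, 16.4 and 24.9 FPKM in AbfA (-2.75 ± 0.99, adjusted p = 0.14), and was called without AbfA replicate 1 (-3.86, adjusted p = 0.025). In the orsellinic acid cluster the largest difference, that of AN7909, rested on AbfA replicate 1. AN7909 had 5.61, 4.04 and 10.4 FPKM in 1542 and 162, 7.43 and 6.88 FPKM in AbfA, and its log2 difference of -1.61 was -0.17 without that library. The 15 tested genes of the sterigmatocystin cluster, a precursor pathway of aflatoxin in other Aspergilli, had a median of 0.16. At 8 h 5 of the 16 austinol genes were called lower in 1542, when 4.77% of all genes were, with a median of -1.66. In the monodictyphenone, orsellinic acid and sterigmatocystin clusters 0 genes were called at 8 h.

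The group of ethanol use was higher in 1542 in 3 of 7 members, against 1.72% of all genes, with 0 lower and a median log2 difference of 0.95. Identifiers without a symbol in the names table are given here with the name under which they were entered in the list, which was not checked against an annotation. AN8979, entered as alcA (the alcohol dehydrogenase that starts ethanol breakdown), stood at 1212, 1007 and 1271 FPKM in 1542 and at 560, 434 and 181 FPKM in AbfA (1.71 ± 0.44, adjusted p = 0.037). AN8980, entered as alcM, stood at 55.6, 64.0 and 41.4 FPKM in 1542 and at 14.9, 11.4 and 3.95 FPKM in AbfA (2.44 ± 0.42, adjusted p = 0.0039). AN8981, entered as alcS, stood at 325, 359 and 278 FPKM in 1542 and at 120, 108 and 32.4 FPKM in AbfA (2.07 ± 0.48, adjusted p = 0.023). In each the 1542 libraries lay above all AbfA libraries, and AbfA replicate 3 was the lowest. AN8978, entered as alcR (the activator of this group), missed the threshold at 35.3, 25.9 and 30.7 FPKM in 1542 and 21.8, 14 and 11.6 FPKM in AbfA (0.95 ± 0.26, adjusted p = 0.051). It was called without AbfA replicate 1 (1.19, adjusted p = 0.013), which made 4 calls of the 7. Without that library 2.35% of all genes were called higher. AN0554, entered as aldA (aldehyde dehydrogenase), had a difference of 0.58 ± 0.28 (adjusted p = 0.29), and AN3741, entered as alcB, had one of -0.61 ± 0.36 (adjusted p = 0.41) and overlapping libraries.

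In these 3 genes the means of 1542 and of AbfA stood above those of BglC and A773. AN8979 averaged 86.4 ± 45.4 FPKM in BglC and 58.6 ± 24 FPKM in A773 (SD, n = 3 each), below every library of 1542 and of AbfA. At 8 h 0 of the 7 were called, where 6.81% of all genes were, with differences of -0.17, 0.37 and 0.19 for AN8979, AN8980 and AN8981. With the 6 libraries alone 0 were called at 2 h. Leaving out 1542 replicate 1, 1542 replicate 2 or AbfA replicate 3 left 1 call of the 7 each.

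Genes of nitrate and ammonium use were higher in 1542 in 3 of 14 members, against 1.72% of all genes, with 0 lower and a median of 0.59. niiA (AN1007), the nitrite reductase, stood at 1057, 1074 and 1079 FPKM in 1542 and at 396, 599 and 483 FPKM in AbfA (1.14 ± 0.30, adjusted p = 0.048). AN7463, entered as the ammonium permease meaA, stood at 866, 883 and 722 FPKM in 1542 and at 274, 460 and 413 FPKM in AbfA (1.13 ± 0.24, adjusted p = 0.014). AN2944, entered as the coactivator tamA, had 44.3, 43.2 and 32.1 FPKM in 1542 and 23.6, 29.8 and 25.7 FPKM in AbfA (0.57 ± 0.14, adjusted p = 0.029). The libraries of the 2 strains did not overlap in 10 of the 14 genes, against 20.6% of all genes. In the 4 genes with the largest differences AbfA replicate 1 was far below the other AbfA libraries. crnA (AN1008), a nitrate transporter, had 190, 192 and 120 FPKM in 1542 and 4.10, 109 and 110 FPKM in AbfA (2.06 ± 0.89, adjusted p = 0.23), and 0.58 without that library. niaD (AN1006), the nitrate reductase, had 331, 336 and 255 FPKM in 1542 and 33.1, 176 and 166 FPKM in AbfA (1.61 ± 0.56, adjusted p = 0.12), and 0.83 without it.

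Without AbfA replicate 1, AN7463 kept its call (adjusted p = 0.036), niiA (adjusted p = 0.095) and AN2944 (adjusted p = 0.062) missed the threshold, and AN4376, entered as the glutamate dehydrogenase gdhA, passed it (0.79, adjusted p = 0.0082). Leaving out 1542 replicate 1 or AbfA replicate 3 left 1 call each, and leaving out 1542 replicate 2 or fitting the 6 libraries alone left 0. In the fit of all libraries 10 of the 14 had an unadjusted p under 0.05. Over all 9201 genes tested 1599 had such a p, and 2.95% were called. The regulators nirA (-0.15) and areA (0.58, adjusted p = 0.08) were not called. At 8 h 0 of the 14 were called, where 6.81% of all genes were, with a median of 0.14. Of the list of proline, GABA and amide use 0 of 5 genes were called by limma or by voom (median 0.57; 3 with an unadjusted p under 0.05), and gatA (AN2248), the GABA transaminase, had 294, 371 and 81.4 FPKM in 1542 and 50.9, 166 and 89.7 FPKM in AbfA (1.17 ± 0.43, adjusted p = 0.15). Of 6 tested genes of purine and uracil uptake and use, 2 were higher, against 1.72% of all genes, and 0 lower. AN9470, entered as the urate oxidase uaZ, had 525, 559 and 772 FPKM in 1542 and 336, 398 and 345 FPKM in AbfA (0.76 ± 0.17, adjusted p = 0.018). AN0660, entered as the uracil transporter furD, had 37.3, 38.8 and 25.9 FPKM in 1542 and 20.8, 20.8 and 16.8 FPKM in AbfA (0.76 ± 0.16, adjusted p = 0.014). Neither gene overlapped between the strains, and both kept their calls without AbfA replicate 1. Leaving out any of the 1542 libraries left 1 call, and leaving out AbfA replicate 3 or fitting the 6 libraries alone left 0.

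Zinc uptake genes, a list drawn up after their values were seen, were higher in 1542 in 4 of 5 members and lower in 1. Over all genes 1.72% were called higher and 1.23% lower, but the list was picked by its values, so nothing is read from its count. Their symbols come from A. fumigatus, where ZrfA, ZrfB and ZrfC are zinc transporters of the plasma membrane. zrfC (AN1833) stood at 4.59, 3.32 and 4.36 FPKM in 1542 and at 0.832, 0.878 and 0.674 FPKM in AbfA (1.5 ± 0.20, adjusted p = 0.00055). Its neighbour aspf2 (AN1832), an allergen gene of A. fumigatus that lies beside zrfC there too, stood at 15.0, 13.5 and 23.8 FPKM in 1542 and at 9.72, 8.62 and 7.09 FPKM in AbfA (0.93 ± 0.23, adjusted p = 0.032). zrfB (AN3799) stood at 44.4, 41.5 and 45.2 FPKM in 1542 and at 22.9, 27.0 and 26.5 FPKM in AbfA (0.76 ± 0.12, adjusted p = 0.0019). zrfC was at a low level in both strains, and zrfB held steady within each strain. zrfA (AN8337) had 0.770, 3.48 and 4.21 FPKM in 1542 and 0.381, 0.337 and 0.329 FPKM in AbfA (1.36 ± 0.29, adjusted p = 0.014), so the difference was carried by 2 of the 3 libraries of 1542. zrfD (AN10468) was lower, at 26.5, 20.9 and 20.6 FPKM in 1542 and 30.5, 33.4 and 32.9 FPKM in AbfA (-0.50 ± 0.12, adjusted p = 0.025). At 8 h zrfC (1.93), aspf2 (1.76) and zrfB (0.90) were again called higher in 1542, when 2.04% of all genes were. With the 6 libraries of 2 h alone zrfC was the only call of the 5, where 0.283% of all genes were called. Leaving out 1542 replicate 2, AbfA replicate 2 or AbfA replicate 3 left 3 calls each, and leaving out 1542 replicate 3 left 2.

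For iron, 0 of 10 measured genes of siderophore synthesis, uptake and regulation were called (limma; 6 had an unadjusted p under 0.05, and voom on recovered reads called 0 as well), with a median of 0.87. Over all genes tested 2.95% were called, and 1599 of 9201 had an unadjusted p under 0.05. The spread among the 1542 libraries was wide in the iron group. mirB (AN8540), a siderophore transporter, had 51.6, 173 and 257 FPKM in 1542 and 15.0, 65.2 and 55.3 FPKM in AbfA (1.77 ± 0.67, adjusted p = 0.16). sidA, entered under AN5823 and the enzyme of the first step of siderophore synthesis, had 49.3, 179 and 290 FPKM in 1542 and 46.5, 60.8 and 54.8 FPKM in AbfA (1.34 ± 0.57, adjusted p = 0.22). In both genes 1542 replicate 1 lay near or within the AbfA range. Without that library 3 of the 10 genes were called, as were 161 of all 9201 genes tested. With AbfA replicate 1 left out instead, 1 of the 10 was called higher, against 2.35% of all genes. Without AbfA replicate 1 the call of the list was hapX (AN8251), a regulator of the response to low iron, with 21.3, 22.7 and 34.2 FPKM in 1542 and 18.5, 13.3 and 15.3 FPKM in AbfA (0.68, adjusted p = 0.066; 0.80 without that library, adjusted p = 0.038). Outside the list, sit2 (AN3763), whose symbol is that of a siderophore transporter of A. fumigatus, was called at 15.3, 31.4 and 35.1 FPKM in 1542 and 6.51, 13.9 and 8.88 FPKM in AbfA (1.37 ± 0.30, adjusted p = 0.017). It was named after its value was seen.

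Several called genes were direct neighbours in the gene order of the names table. Of 261 called genes with a place there, 34 had a direct neighbour called in the same direction. Of 438 tested neighbours of called genes, 42 (9.59%) were called in the same direction, where 1.72% of all genes were called higher and 1.23% lower. These blocks were picked from the calls, and no test was made of them. The longest runs held 5 genes. In the run of AN2951, AN2952, AN2953, agd3 (AN2954) and gtb3 (AN2955) all 5 were higher in 1542. agd3 and gtb3 have their symbols from A. fumigatus, where both proteins take part in making galactosaminogalactan, a sugar polymer of the outer cell wall. AN2951 stood at 95.0, 121 and 123 FPKM in 1542 and at 9.16, 27.0 and 24.2 FPKM in AbfA (2.55 ± 0.33, adjusted p = 0.00043). agd3 stood at 72.6, 93.8 and 79.5 FPKM in 1542 and at 18.1, 38.6 and 40.5 FPKM in AbfA (1.39 ± 0.33, adjusted p = 0.026). gtb3 stood at 26.0, 31.1 and 25.0 FPKM in 1542 and at 9.86, 13.8 and 12.1 FPKM in AbfA (1.14 ± 0.22, adjusted p = 0.0069). AbfA replicate 1 was the lowest library for these 3, and without it AN2951 and gtb3 remained past the threshold and agd3 did not (1.03, adjusted p = 0.07). AN2953 and AN2952 had differences of 0.68 ± 0.12 and 0.66 ± 0.17 (adjusted p = 0.004 and 0.035). All 5 were also called higher at 8 h, when 2.04% of all genes were. At 2 h leaving out 1542 replicate 2 or 3 left 3 calls each, and the 6 libraries alone gave 0.

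The other run of 5 was AN3344 to AN3348, with log2 differences of 1.01 to 1.32. AN3346 stood at 50, 47.1 and 52.3 FPKM in 1542 and at 24.2, 25.8 and 22.1 FPKM in AbfA (1.02 ± 0.17, adjusted p = 0.0036), close within each strain and without overlap. It was the only one of the 5 called with the 6 libraries alone (adjusted p = 0.03). At 8 h 3 of the 5 were called higher, when 2.04% of all genes were. A shorter run held AN3396, AN3395 and fmaG (AN3394), a symbol of the fumagillin cluster of A. fumigatus. fmaG stood at 15.6, 13.9 and 18.8 FPKM in 1542 and at 2.96, 5.59 and 4.59 FPKM in AbfA (1.69 ± 0.24, adjusted p = 0.00075). AN8893 and AN8894, also neighbours, had 38.1, 49.0 and 23.7 FPKM and 49.7, 57.8 and 27.8 FPKM in 1542, against 6.97, 7.03 and 7.25 FPKM and 6.22, 7.58 and 5.08 FPKM in AbfA, with differences of 2.17 ± 0.42 and 2.61 ± 0.48 (adjusted p = 0.0082 and 0.0058).

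Among the 770 tested genes with a symbol in the names table, 31 (4.03%) were called, 20 higher and 11 lower. Over all genes tested 2.95% were called, 1.72% higher and 1.23% lower. Those named in the rest of this paragraph were chosen after their values were seen. tcsB (AN1800), a histidine kinase of osmotic signalling, had 39.9, 39.0 and 51.3 FPKM in 1542 and 20.6, 26.1 and 19.2 FPKM in AbfA (0.95 ± 0.17, adjusted p = 0.0051). rgsA (AN5755), a regulator of G-protein signalling, had 975, 1029 and 1023 FPKM in 1542 and 722, 785 and 731 FPKM in AbfA (0.44 ± 0.08, adjusted p = 0.0058). xlnR (AN7610), the activator of xylanase genes, had 19.6, 20.4 and 21.0 FPKM in 1542 and 14.3, 14.6 and 15.3 FPKM in AbfA (0.44 ± 0.11, adjusted p = 0.039). These last 2 differences were small and the libraries of each strain lay close together. Among the lower genes, treA (AN9340), a trehalase, had 67.9, 48.7 and 47.6 FPKM in 1542 and 149, 71.4 and 71.9 FPKM in AbfA (-0.75 ± 0.20, adjusted p = 0.049), and missed the threshold without AbfA replicate 1 (-0.40, adjusted p = 0.11). pmcB (AN4920), a calcium pump, had 56.7, 52.3 and 42.7 FPKM in 1542 and 87.2, 82.0 and 75.9 FPKM in AbfA (-0.69 ± 0.18, adjusted p = 0.044). nimT (AN3941), the phosphatase that starts mitosis, had 83.4, 71.2 and 79.2 FPKM in 1542 and 109, 112 and 113 FPKM in AbfA (-0.51 ± 0.12, adjusted p = 0.029). trpC (AN0648) of tryptophan synthesis differed by -0.35 ± 0.09 (adjusted p = 0.034) and lysF (AN6521) of lysine synthesis by -0.60 ± 0.15 (adjusted p = 0.039).

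The lists closest to enzyme secretion are read against 2.95% of all genes called, a share at which lists of 8 or 9 genes may hold no call. An unadjusted p under 0.05 was held by 1599 of the 9201 genes tested. In the list of endoplasmic reticulum folding and the unfolded protein response 0 of 8 genes were called (2 had an unadjusted p under 0.05; voom called 0), and the median was -0.16. The chaperone bipA (AN2062) had 404, 306 and 385 FPKM in 1542 and 656, 404 and 449 FPKM in AbfA (-0.44 ± 0.16, adjusted p = 0.14). hacA (AN9397), the regulator of the unfolded protein response, had 376, 547 and 292 FPKM in 1542 and 415, 445 and 412 FPKM in AbfA (-0.11 ± 0.27, adjusted p = 0.88). The hacA libraries of 1542 reached both above and below those of AbfA. Of the heat shock chaperones 0 of 8 were called (median -0.09; 0 with an unadjusted p under 0.05, and 0 called by voom), and hsp70 (AN5129) had 3494, 3441 and 2881 FPKM in 1542 and 4932, 4448 and 4017 FPKM in AbfA (-0.45 ± 0.24, adjusted p = 0.35). In the list of starch and maltose use 1 of 9 genes was called. AN7402, entered as the glucoamylase glaB, had 2.50, 2.57 and 2.12 FPKM in 1542 and 1.43, 0.448 and 0.213 FPKM in AbfA (1.06 ± 0.26, adjusted p = 0.03), and missed the threshold with the 6 libraries alone (adjusted p = 0.16) and without any library but AbfA replicate 1. With AbfA replicate 1 left out, 5.51% of all genes were called (2.35% higher, 3.16% lower). Without that library 3 of the 9 were called, with AN3402, entered as the amylase amyB, higher (0.34, adjusted p = 0.77; 1.15 without it, adjusted p = 0.04), and AN4843, entered as the glucosidase agdE, lower (-0.24, adjusted p = 0.69; -0.73 without it, adjusted p = 0.011). The activator of that group, amyR (entered as AN2016), differed by 0.19 ± 0.11 (adjusted p = 0.42) at 2 h and by 0.58 at 8 h (adjusted p = 0.0054).

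Counts in the remaining lists were 0 or 1, and 2.95% of all genes were called. Of the 9201 genes tested, 1599 had an unadjusted p under 0.05. Sterol synthesis had 1 of 13 called, erg1 (AN11008), the squalene epoxidase, at 89.0, 80.6 and 135 FPKM in 1542 and 74.5, 55.2 and 40.2 FPKM in AbfA (0.84 ± 0.23, adjusted p = 0.049). Cell wall synthesis had 1 of 12 called, gel1 (AN7657), whose symbol is that of a glucan-remodelling enzyme of A. fumigatus, at 910, 939 and 968 FPKM in 1542 and 561, 716 and 649 FPKM in AbfA (0.55 ± 0.12, adjusted p = 0.015). erg1 missed the threshold in 12 of the 17 other settings tried, and gel1 in 5 of them. Glycolysis (0 of 11, median 0.21), acetate use and gluconeogenesis (0 of 11, median -0.02), the proteasome (0 of 15, median 0.06), oxidative stress defence (0 of 12, median 0.08), autolysis (0 of 8, median -0.18) and carbon catabolite repression (0 of 3, median -0.04) had 0 calls. In the last of these, AN4170, entered as creD, had 144, 129 and 135 FPKM in 1542 and 152, 100.4 and 56.2 FPKM in AbfA (0.51, adjusted p = 0.25), and was called without AbfA replicate 1 (0.84, adjusted p = 0.013). Counts of 0 are those of limma, voom on recovered reads called 0 members of these lists as well, and the members with an unadjusted p under 0.05 numbered 0 in glycolysis and autolysis, 1 in the proteasome and in catabolite repression, and 2 in each of the others. The velvet family and sexual development (0 of 8, median 0.07), breakdown of phenylalanine and tyrosine (0 of 3, median 0.06) and penicillin synthesis (0 of 2, median 0.31) had 0 calls by both methods and 0 or 1 member at that unadjusted p. Conidiation had 0 of 18 called at 2 h (median -0.05; 2 with an unadjusted p under 0.05), and 5 of these genes were lower in 1542 at 8 h, when 4.77% of all genes were. wetA (AN1937), a late regulator of spore formation, had 2.93, 3.13 and 3.01 FPKM in 1542 and 6.70, 6.74 and 5.80 FPKM in AbfA at 2 h (-0.88 ± 0.32, adjusted p = 0.14), without overlap. The spore pigment gene pksP (AN8209, entered as wA, which carries a mutation in the parental strain) had 3.84, 3.53 and 4.10 FPKM in 1542 and 15.2, 10.7 and 7.89 FPKM in AbfA (-1.30 ± 0.46, adjusted p = 0.13).

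**Figure D4:**
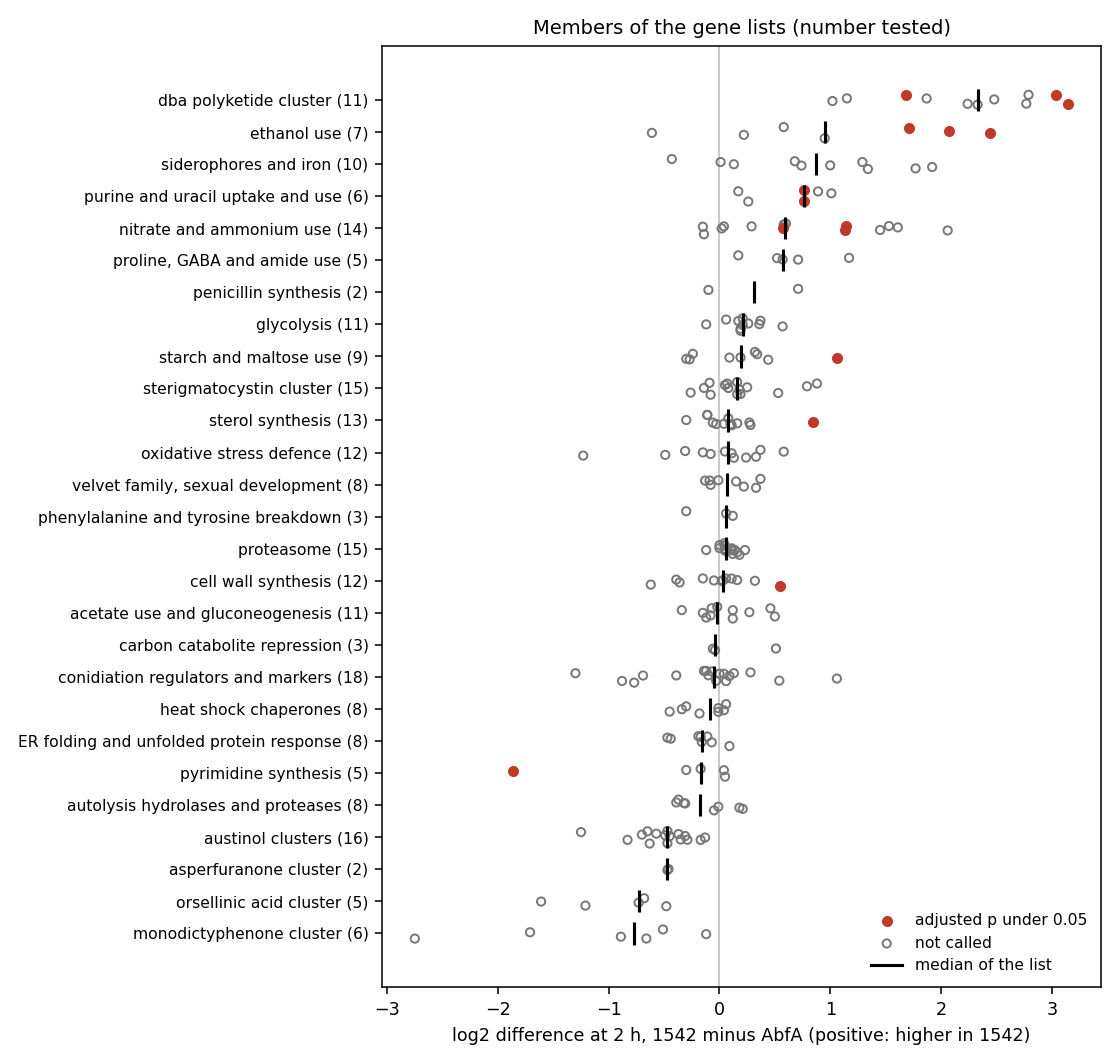
The log2 difference at 2 h, 1542 minus AbfA, of each tested member of 27 gene lists, with the number tested in brackets, filled red circles for members called at an adjusted p under 0.05, open circles for the others and a black bar for the median. The dba cluster has the highest median at 2.33 and the monodictyphenone cluster the lowest at -0.77, and most lists lie around 0.

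The libraries of 8 h, which are separate samples of the same strains, were called by the same test in 627 genes (6.81%), of which 188 were higher (2.04%) and 439 lower (4.77%) in 1542. Of the 271 genes called at 2 h, 256 (94.5%) had a difference of the same sign at 8 h, against 66.3% of all genes tested. In the same direction 127 (46.9%) were called at both times, which is 20.3% of the genes called at 8 h, and 0 were called in opposite directions. Both tests used the same estimate of the spread of each gene, so genes with a small estimate were favoured at both times. Among the genes higher at 2 h 69 of 158 were called again, and among the lower genes 58 of 113. The size at 8 h was a median of 0.67 times that at 2 h over the 271 genes, where choosing genes at 2 h favours large values at 2 h. AN8308 (3.80), AN0528 (3.93), fmaG (2.23) and AN7217 were among those called at both times. AN7217 had 1338, 2059 and 2245 FPKM in 1542 and 297, 508 and 609 FPKM in AbfA at 2 h, with differences of 2.02 at 2 h and 2.48 at 8 h, and was named after its values were seen. Called at 2 h and not at 8 h were AN8544, with 303, 333 and 273 FPKM in 1542 and 57.7, 106 and 48.9 FPKM in AbfA at 2 h (2.16 ± 0.38, adjusted p = 0.004; 0.46 at 8 h), and AN8602, with 87.7, 82.3 and 85.5 FPKM in 1542 and 33.4, 31.2 and 28.5 FPKM in AbfA (1.43, adjusted p = 0.0051; 0.71 at 8 h).

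Whether a difference itself changed between the times was tested directly, and 0 of 9201 genes passed (limma, smallest adjusted p = 0.35; 650 genes had an unadjusted p under 0.05, and voom on recovered reads also called 0). The change for AN8979 had an unadjusted p of 0.0064 and an adjusted p of 0.51, and that for AN8980 had 0.0023 and 0.47. A call at 2 h without a call at 8 h is therefore not shown to be a difference between the times.

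**Figure D5:**
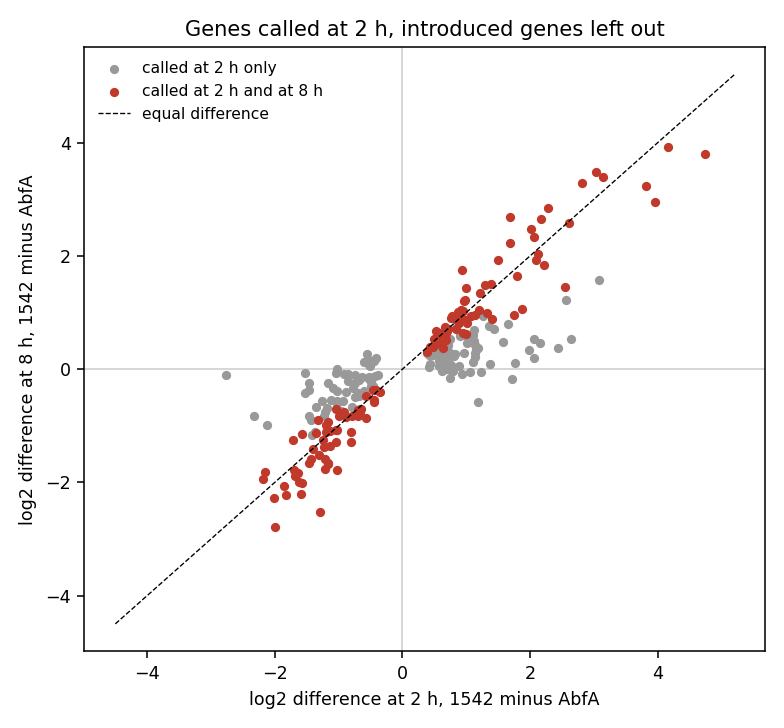
The log2 difference, 1542 minus AbfA, at 8 h against that at 2 h for the genes called at 2 h, without the introduced genes, with red points for genes also called at 8 h and grey points for the others. The points lie mostly in the quadrants of equal sign, as 256 of the 271 called genes did with the introduced genes counted, and many grey points lie nearer 0 at 8 h than the line of equal difference.

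Set beside the other strains at 2 h, the 271 genes did not belong to 1 strain alone. The mean of 1542 was the highest or lowest of the 4 strains in 182 of them and the mean of AbfA in 154, with both in 69. Of the 158 higher genes, 1542 had the highest mean in 121 and AbfA the lowest in 72. Of the 113 lower genes, 1542 had the lowest mean in 61 and AbfA the highest in 82. No test was made of these counts, since the genes were chosen on the same libraries.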

How the data were processed

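The authors deposited FPKM values of 10631 genes for 24 libraries, made from mRNA with a stranded kit, per the labels' protocols. HTSeq 0.6.0, SAMtools 0.1.18, DESeq2, bcl2fastq 1.8.4 and FastQC are listed in the submitters' processing notes without saying what each did. Whether counting used the strand, which aligner was run and on which genome build is not given in the sources used here, so overlapping, antisense and near-identical genes may share reads. Values of every gene (100.0%, tolerance 0.02) came out as whole reads, with totals of 7140121 to 32309717 a library. Among 8457 genes with at least 100 reads in a library, 8435 had an estimated length that is a multiple of 3. The recovery of the reads assumed that nearly all lengths are such multiples, so this count is no separate evidence of coding lengths. The lengths themselves are not stated.

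Genes with at least 1 FPKM in at least 3 libraries were compared on log2(FPKM + 1), which understates differences of low genes, with limma 3.58.1 in R 4.3.3 (8 group means over 24 libraries, variance trend, two-sided, Benjamini-Hochberg adjustment over 9201 genes, threshold 0.05). Every adjusted p is from this fit unless a setting is named. The code recovered known changes in simulated data, where each gene had the same spread in every group. The wider spread of AbfA replicate 1 was not simulated. The filter kept 75 genes that reached 1 FPKM in exactly 3 libraries and dropped 98 that did so in exactly 2. Median levels over the 6 libraries were 0.49 FPKM for those kept and 0.42 FPKM for those dropped. Of the genes kept, 1 passed through 1542 at 2 h alone and 2 through AbfA at 2 h alone. Since FPKM divides by the library total, median-of-ratios scaling was tried, as were voom on the reads, other pseudocounts and filters, array weights, a replicate block, fewer libraries, and leaving out each library.

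The named genes were those called with 24 and with 6 libraries and without overlap (the largest 12 each way with a name, the largest 5 each way of any), pyrG, the introduced genes and called members of lists, and genes added after their values were seen are marked as such. Members and lists were chosen with earlier results of these data known. Lists were described by counts and medians, with no test of a list, and listed genes without a match in the file were left out. Symbols and gene order come from a RefSeq table (assembly ASM1142v1), which held 9941 of the identifiers and gave 779 a symbol. Each group of 3 is described in the labels as biological triplicates. Sequences were not used here.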

Additional observations from a re-analysis of the deposited data

How the results depend on the processing

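The counts of called genes depended on which libraries estimated the spread. Against 271 genes with all 24 libraries (127 of them at least 2-fold), 26 (25 at least 2-fold) were called with the 6 libraries alone, and 1921 (329 at least 2-fold) with array weights. Settings chosen after seeing the data gave 68 (48 at least 2-fold) with the 12 libraries of 2 h, and 435 (261 at least 2-fold) with the libraries compared but AbfA replicate 1 left out. Leaving out 1 library at a time gave 122 to 507 genes (70 to 219 at least 2-fold), the lowest without 1542 replicate 2 and the highest without AbfA replicate 1. Leaving out any of the 5 libraries other than AbfA replicate 1 gave 168 genes or fewer. The cause of these shifts was not tested beyond the libraries named. The change of the difference between the times was called in 0 genes, except for 464 with array weights, and in 0 to 3 when 1 library was left out, with 3 without 1542 replicate 1. Median-of-ratios scaling gave 329 genes, of which 51.7% were higher in 1542, against 58.3% in the main result, and it moved the share of higher genes by under 10 points. Higher genes were 42.6% without AbfA replicate 1, 43.8% with array weights, and 79.4% with the 12 libraries of 2 h. The pseudocounts, filters and voom gave 224 to 331 genes.

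Same-numbered libraries of 1542 and AbfA had deviations correlated at 0.1, 0.14 and 0.04, and differently numbered ones at -0.1 to 0.03. The same-numbered values were thus the highest, though small. The labels tie no number to a shared day or batch, so the samples were not treated as paired. With the number as a replicate block 217 genes were called (103 at least 2-fold; 0 for the change between the times).

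Of 42 genes named by the rule or by a list, 0 changed sign under any setting; 28 calls were lost with the 6 libraries alone and 4 under the replicate block. With 3 libraries a strain, a gene that was not called may still differ. Genes at a few FPKM, such as zrfA and zrfC, rest on fewer reads than the rest.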
